A study of Mus musculus with 778 samples.

Results

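The onset of oocyte growth was described here by comparing non-growing oocytes (NGO) with the first class of growing oocytes (GO1) in single-cell RNA-seq data from the mouse ovary. The members were chosen by their column names in the table of UMI counts, where a UMI (unique molecular identifier) tags 1 captured RNA molecule. These names gave 46 NGO cells and 51 GO1 cells, 97 in all, and the rest of the table was made up of 26, 44 and 56 oocytes of 3 later stages. All were single oocytes of untreated wild-type ICR female mice, profiled from polyadenylated RNA. NGO were under 20 µm in diameter and came from mice aged 3 to 4 days, whereas GO1 measured 30 to 45 µm and came from mice aged 3 to 4 weeks. The ovaries were dissociated enzymatically, the somatic cells were washed away and each oocyte was picked by hand. Stage and mouse age changed together, so oocyte growth and the age of the ovary cannot be told apart. The cells had been pooled into 4 libraries with 96 barcodes, all 96 of which were used in more than 1 library, and a cell's column name does not say which library it came from. Each stage was therefore treated as 1 pooled sample. No test between the stages was possible, and the spread given for each value is that between cells.

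An oocyte leaves the resting pool of primordial follicles when its follicle is activated. It then enlarges while still arrested in meiotic prophase, builds the zona pellucida around itself, exchanges metabolites and signals with granulosa cells through gap junctions, and stores the RNAs and proteins on which meiotic maturation and the first divisions of the embryo depend. Transcription factors such as FIGLA, NOBOX, SOHLH1 and LHX8 direct the first oocyte genes, and the oocyte later secretes GDF9 and BMP15, growth factors that act on the granulosa cells.

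The NGO cells held 25198132 UMIs in all, with 51400 to 1482980 per cell (median 540432). The GO1 cells held 26752883, but these were spread unevenly, from 22279 to 3898137 per cell (median 110146), and the 10 deepest cells carried 80.4% of them against 42.6% in NGO. Levels are therefore given as CPM, the UMIs of a gene for every 1000000 UMIs of its cell, and the level of a stage is the mean over cells, which weighs every cell alike. CPM is a share of the captured RNA. Because a growing oocyte also accumulates RNA, a lower CPM does not say that a cell held fewer molecules of that RNA. There were 24 GO1 cells under 100000 UMIs, 21 between 100000 and 1000000, and 6 above, which began at 2380942 after a gap from 782536 and stood apart from the others for some genes. Values by depth are given for the genes and lists these cells moved most, not for every result.

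The cells of both stages carried oocyte markers, which do not test the stage label. All 12 oocyte markers listed reached a mean of 10 CPM in both stages, and together they summed to 26178 to 51275 CPM per NGO cell (median 35536) and 12635 to 22349 per GO1 cell (median 17290). Of 20 markers of granulosa and pregranulosa cells, 3 reached 10 CPM in NGO and 4 in GO1. Their sums had medians of 365 and 327 CPM, and *Serpine2*, a secreted protease inhibitor, made up much of both, with a mean of 327 CPM in NGO and 165 CPM in GO1. Within this list, *Esr2*, an estrogen receptor, rose from 10.8 to 122.4 CPM, and *Cyp19a1*, the aromatase of estrogen synthesis, from 1.31 to 17 CPM. None of 14 markers of stroma and theca reached 10 CPM in either stage, and *Col1a2*, *Lum*, *Pdgfra* and *Tagln* had no UMI in GO1. Of 19 blood and endothelial markers, 11 had no UMI in NGO and 13 none in GO1, the globins among them. *Pecam1*, an adhesion molecule of endothelium, rose from 3.48 to 17.7 CPM. The sums of the granulosa and the blood and endothelial markers were higher in deeper GO1 cells. From the shallowest to the deepest class, the granulosa list had means of 266, 365 and 595 CPM (NGO 372 CPM), and the blood and endothelial list had 17.7, 27.8 and 86.6 CPM (NGO 19.9 CPM). The part of other cells in the results below was not tested.

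A gene was tested for size when its mean reached 10 CPM in the higher stage, and was said to rise or fall when the means differed at least 2-fold. Of 8539 such genes, 56.6% passed, 22.1% (1883) with a higher share in GO1 and 34.6% (2954) with a lower share, and these percentages are the background for each group below. Where a gene rose or fell from one level to another, the levels are its means over NGO and over GO1 cells. The median change of all tested genes was -0.36 on the log2 scale (GO1 over NGO, used throughout). DESeq2 size factors shift every log2 change by 0.36 and trimmed-mean (TMM) factors by 0.34, which turns the split into 2551 higher and 2183 lower, or 2505 higher and 2224 lower. Changes of gene groups are therefore read against -0.36 and not against 0. A group whose median is below 0 by less than 0.34 turns positive with either shift. In addition, cells were said to separate when, after thinning to 20000 UMIs, the GO1 cell was the higher in at least 90% of all NGO-GO1 pairs, or in at most 10%. Among the tested genes, 2.51% separated upward and 3.67% downward, and the ranges of the 2 stages did not overlap for 0.351% upward and 0.913% downward.

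The genes of the zona pellucida, the glycoprotein coat of the oocyte, all took a smaller share of the RNA in GO1. *Zp3*, whose product binds sperm (NCBIM37 chromosome 5, 136455969 to 136464494, plus strand), was at 8649.7 to 16128 CPM (median 11568) in NGO cells and at 1397 to 5829 CPM (median 2814) in GO1 cells, and no GO1 cell reached the lowest NGO cell. Its mean was 3.91-fold lower in GO1 (log2 -1.97). In summed counts, *Zp3* had 282872 UMIs over the NGO cells and 112811 over the GO1 cells. *Zp2*, which encodes the protein cleaved after fertilization (NCBIM37 chromosome 7, 127270286 to 127288804, minus strand), was at 2127 to 6475 CPM (median 4021) in NGO and 331 to 1477 CPM (median 624) in GO1 (log2 -2.55), again without overlap. *Zp1*, which cross-links the zona filaments (NCBIM37 chromosome 19, 10988777 to 10995122, minus strand), was at 1868 to 3496 CPM (median 2684) in NGO and 189 to 1909 CPM (median 525) in GO1 (log2 -2.09). For *Zp1* the ranges overlapped slightly, and depth mattered. Its GO1 mean was 424 CPM in cells under 100000 UMIs, 590.1 in the middle class and 1504 in the 6 deepest cells. The summed level of the list was 13089 to 22312 CPM (median 18291) per NGO cell and 2222 to 8692 CPM (median 4039.7) per GO1 cell.

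**Figure D1:**
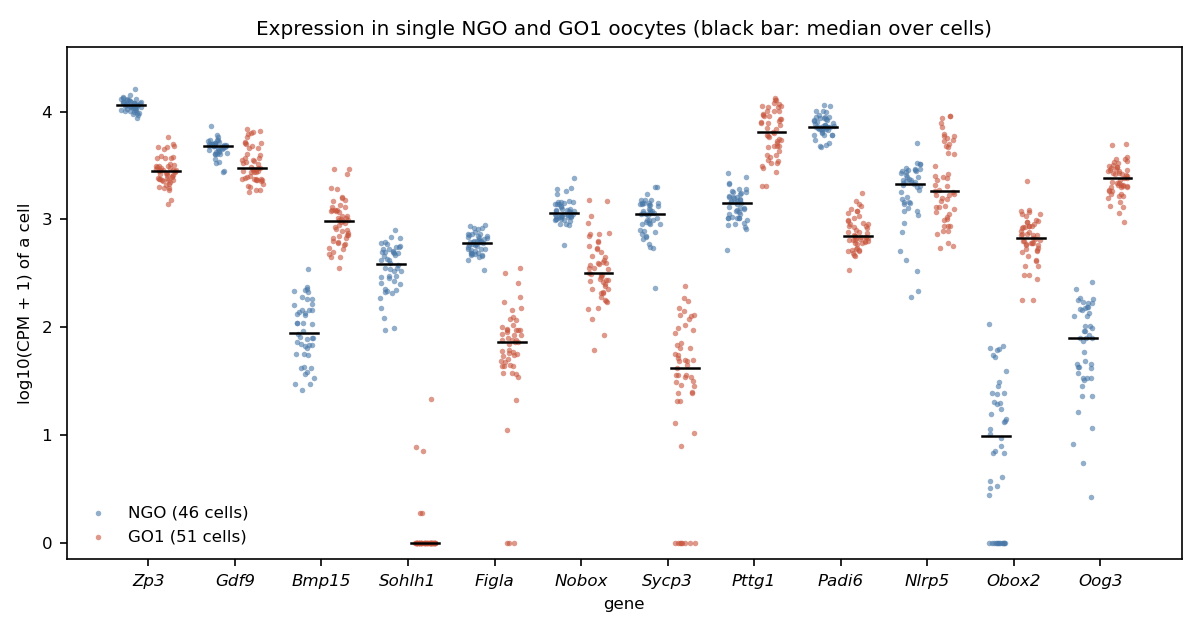
Level of 12 oocyte genes in each cell as log10(CPM + 1) on the vertical axis, with the genes along the horizontal axis. Each point is a cell (46 NGO in blue, 51 GO1 in red) and black bars are medians over cells; Zp3 and Padi6 lie lower in every GO1 cell, Bmp15, Obox2 and Oog3 higher, and Gdf9 and Nlrp5 overlap.

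The growth factors that the oocyte secretes went the other way or stayed within the spread of the cells. In this list 3 of 8 tested members rose and none fell, and the median was 0.60. *Bmp15* (NCBIM37 chromosome X, 5891225 to 5897839, minus strand) was at 25.1 to 349 CPM (median 88.2) in NGO cells and 355 to 2946 CPM (median 971) in GO1 cells, a 9.64-fold rise with no overlap between the ranges. *Gdf9* (NCBIM37 chromosome 11, 53244525 to 53251406, plus strand), which acts with *Bmp15* on granulosa cells, was already high in NGO at 2765 to 7304 CPM (median 4802). In GO1 cells it ranged over 1782 to 6932 CPM (median 2986), and the difference in means (log2 -0.42) was below the size rule. *Bmp6* rose from 17.4 to 60.1 CPM and *Bmp5* from 11.4 to 103.8 CPM. Both are ligands of the bone morphogenetic protein group.

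The receptors and intracellular mediators of this superfamily that were tested mostly rose in mean, with overlapping cells. Of 29 listed genes 11 were tested, of which 8 rose and none fell, with a median of 1.72. No member separated. The summed level was 233 to 592 CPM (median 410) per NGO cell and 317 to 2282 CPM (median 553) per GO1 cell. *Bmpr1a* and *Bmpr1b*, type I receptors, went from 6.42 to 28.3 CPM and from 39.8 to 104.1 CPM. *Smad3*, a transcriptional mediator of activin-type signals, rose from 9.40 to 62.3 CPM, and *Smad4*, the partner shared by all these mediators, from 13.4 to 77 CPM. *Smad2*, another mediator of activin-type signals, was at 56.7 CPM in NGO and 63.3 CPM in GO1, under the size rule. The ubiquitin ligase *Smurf2*, which turns receptors over, rose from 11.6 to 96.9 CPM.

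Most transcription factors of early oocyte differentiation fell in share. In the list 4 of 19 tested members rose and 11 fell, and the median was -1.56. The summed level overlapped, at 5363 to 10765 CPM (median 7046) per NGO cell and 3958 to 17909 CPM (median 6058) per GO1 cell. By depth the GO1 means of this sum were 9157, 5635 and 4990 CPM from the shallowest to the deepest class, around an NGO mean of 7229 CPM. *Sohlh1*, a basic helix-loop-helix factor (NCBIM37 chromosome 2, 25698515 to 25702768, minus strand), had the largest fall among separated genes that reached 100 CPM. It was at 93.7 to 795 CPM (median 387) in NGO cells and at 0 to 20.6 CPM (median 0) in GO1 cells, where 46 of 51 cells had no UMI. It had 9417 UMIs over the NGO cells and 9 over the GO1 cells, so its share of all NGO UMIs was 1111 times (exact 95% interval 585 to 2430.2) its share of all GO1 UMIs. This interval covers counting error only, and the deep cells weigh most in it. In means over cells the fall was 566-fold. Its partner *Sohlh2* was at 15.4 to 134.1 CPM (median 49.5) in NGO and 0 to 124.5 CPM (median 0) in GO1, a fall that came with overlapping cells.

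*Figla*, which activates the zona genes (NCBIM37 chromosome 6, 85967185 to 85970990, plus strand), was at 338 to 884 CPM (median 605) in NGO cells and 0 to 354 CPM (median 72.8) in GO1 cells, 7.15-fold lower in the mean. *Nobox*, an oocyte homeobox factor (NCBIM37 chromosome 6, 43253673 to 43259561, minus strand), was at 584 to 2443 CPM (median 1141) in NGO and 60.6 to 1519 CPM (median 319) in GO1. The GO1 cells of *Nobox* differed with depth, with means of 254, 425 and 1053 CPM from the shallowest to the deepest class, so the deepest cells were close to the NGO mean of 1237 CPM. The LIM homeobox gene *Lhx8* fell from 387 to 155.5 CPM, and *Tbpl2*, an oocyte form of the TATA-binding protein, from 161 to 16.8 CPM. *Stat3*, a cytokine-responsive factor (NCBIM37 chromosome 11, 100746412 to 100800854, minus strand), was at 376 to 967 CPM (median 549) in NGO and 0 to 189.8 CPM (median 27.2) in GO1. It too was higher in deep GO1 cells, with 21.8, 41.1 and 154.6 CPM by class, but no GO1 cell reached the lowest NGO cell. *Sub1*, a transcriptional coactivator, was at 3301 CPM in NGO and 5795 CPM in GO1, below the size rule.

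Germ cell and pluripotency factors were mixed, with 5 of 17 tested members higher, 2 lower and a median of -0.17. *Pou5f1*, a core pluripotency factor, was at 32.5 to 198 CPM (median 99.4) in NGO cells and 0 to 54.7 CPM (median 14.6) in GO1 cells. *Ddx4*, the germline RNA helicase, was at 156.8 to 442 CPM (median 335) in NGO and 0 to 263 CPM (median 58.9) in GO1. *Dazl*, a germ cell RNA-binding protein, was at 460.5 CPM in NGO and 446 CPM in GO1. *Dppa3*, which protects the maternal genome of the embryo from demethylation, was at 9134 CPM in NGO and 5985 CPM in GO1. Neither passed the size rule. *Dppa2* rose from 50.6 to 231 CPM.

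To set the sequence beside the measurements, the promoters of genes that fell (*Zp3*, *Sohlh1*, *Sycp3*) and of one that rose (*Bmp15*) are shown. Each runs from 250 bases before to 50 after the RefSeq start, with the E-box core CANNTG in capitals, the motif read by basic helix-loop-helix factors such as FIGLA and SOHLH1. The core is its own reverse complement, so 1 search covers both strands. The sequences are from RefSeq (GRCm38.p6), a different build from that of the gene positions given elsewhere.
Zp3 (GRCm38.p6, chr5:135979855-135980154, plus strand): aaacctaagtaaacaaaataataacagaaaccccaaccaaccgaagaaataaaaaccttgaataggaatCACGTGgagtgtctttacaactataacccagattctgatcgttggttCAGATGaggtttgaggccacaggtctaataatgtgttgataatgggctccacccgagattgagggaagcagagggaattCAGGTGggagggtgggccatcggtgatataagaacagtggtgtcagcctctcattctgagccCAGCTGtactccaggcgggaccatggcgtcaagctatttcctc
Sohlh1 (GRCm38.p6, chr2:25847199-25847498, minus strand): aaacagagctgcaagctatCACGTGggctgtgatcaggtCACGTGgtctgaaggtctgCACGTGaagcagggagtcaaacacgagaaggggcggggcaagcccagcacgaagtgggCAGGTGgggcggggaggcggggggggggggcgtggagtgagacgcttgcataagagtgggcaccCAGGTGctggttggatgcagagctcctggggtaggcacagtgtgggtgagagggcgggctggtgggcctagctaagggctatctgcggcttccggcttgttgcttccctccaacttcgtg
Sycp3 (GRCm38.p6, chr10:88459337-88459636, plus strand): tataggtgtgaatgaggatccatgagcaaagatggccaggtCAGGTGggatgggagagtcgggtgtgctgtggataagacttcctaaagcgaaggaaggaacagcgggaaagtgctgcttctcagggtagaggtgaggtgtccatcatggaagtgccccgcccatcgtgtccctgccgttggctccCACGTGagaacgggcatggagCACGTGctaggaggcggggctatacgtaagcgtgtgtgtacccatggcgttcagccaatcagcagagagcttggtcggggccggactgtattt
Bmp15 (GRCm38.p6, chrX:6320675-6320974, minus strand): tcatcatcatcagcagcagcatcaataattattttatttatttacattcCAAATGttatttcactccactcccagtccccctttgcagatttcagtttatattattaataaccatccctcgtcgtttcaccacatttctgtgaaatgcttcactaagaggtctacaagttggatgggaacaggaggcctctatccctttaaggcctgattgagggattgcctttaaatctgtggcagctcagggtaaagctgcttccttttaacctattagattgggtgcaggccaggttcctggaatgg
They hold 4, 5, 3 and 1 copies. A core stood in 72.1% of all RefSeq promoters of this length and in 63.2% of those of tested genes. By group the core stood in 66.5% of the promoters of genes that separated downward and in 72.6% of those that separated upward. Of its palindromic forms, CAGCTG was found in 16.9% of the downward group, 23.4% of the upward group and 15.1% of all tested genes, whereas CACGTG stood in 16.5% of the promoters of genes that separated downward, in 5.71% of those that separated upward and in 10.8% of those of all tested genes.

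Genes of the synaptonemal complex mostly fell, while those that hold and later release sister chromatids mostly rose. Of the synaptonemal complex, the protein scaffold that pairs homologous chromosomes, 1 of 12 tested members rose and 7 fell, with a median of -1.56. *Sycp3*, of its lateral element (NCBIM37 chromosome 10, 87922314 to 87935981, plus strand), was at 229.7 to 2021 CPM (median 1132) in NGO cells and 0 to 240.2 CPM (median 40.7) in GO1 cells, 19.6-fold lower in the mean. *Sycp1*, of the transverse filament, was at 44.1 to 462 CPM (median 142.2) in NGO and 0 to 210.1 CPM (median 27.5) in GO1. *Smc1b*, a meiotic cohesin subunit, was at 365 to 1111 CPM (median 652) in NGO and 0 to 343 CPM (median 68.1) in GO1 with no overlap. It fell although most genes of cohesin and its regulators rose. Members of the synaptonemal complex did not all fall. *Syce2*, of the central element, was at 940.4 CPM in NGO and 1073 CPM in GO1, and *Sycp2* rose from 41.4 to 120.6 CPM.

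Among genes of meiotic recombination 3 of 22 tested members rose and 5 fell, fewer than the background in each direction, with a median of -0.60. *Prdm9*, which sets recombination sites, fell from 19.23 to 3.40 CPM, and *Mei4*, needed for double-strand breaks, rose from 2.66 to 102.1 CPM. *Brca2*, a recombination mediator, was at 183 CPM in NGO and 255 CPM in GO1, under the size rule.

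Of cohesin, shugoshin and their regulators, 11 of 18 tested members rose and 2 fell, with a median of 1.41. In this list 5 separated upward and 1 downward. *Pttg1*, securin, the inhibitor of the protease that cuts cohesin (NCBIM37 chromosome 11, 43233752 to 43239753, minus strand), was at 521 to 2719 CPM (median 1411) in NGO cells and 2063 to 13262 CPM (median 6539) in GO1 cells, a 4.97-fold rise in the mean. *Sgo1*, a protector of centromeric cohesin, was at 30.3 to 155.6 CPM (median 87.1) in NGO and 93 to 2186 CPM (median 406) in GO1. It was highest in shallow GO1 cells, at 811 CPM against 431 and 153.5 CPM in the deeper classes, all above the NGO mean of 86.2 CPM. The cohesin acetyltransferase *Esco2* rose from 294 to 1109.5 CPM, the core subunits *Smc3* from 206 to 689.7 CPM and *Rad21* from 8.33 to 61.1 CPM, and the release factor *Wapl* from 22.8 to 189 CPM. The summed level was 2148 to 4502 CPM (median 3470.0) per NGO cell and 5416 to 17149.7 CPM (median 10264) per GO1 cell. *Pttg1* alone made up a large part of this sum, with means of 1417 and 7048 CPM against 3340 and 10726 CPM for the whole list. In the 6 deepest GO1 cells the mean of the sum was 7866 CPM, against 13281 CPM in the middle class.

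The spindle assembly checkpoint, which delays chromosome segregation until kinetochores are attached, was mixed, with 6 higher and 4 lower of 26 tested. The summed level did not overlap, at 4245 to 5737 CPM (median 4904) per NGO cell and 5925 to 8798 CPM (median 7691) per GO1 cell. *Bub1b* rose from 52.9 to 325 CPM and *Mad2l1* from 258 to 686 CPM, both checkpoint proteins, whereas *Mad1l1*, which recruits the latter, fell from 50.7 to 17.3 CPM. In the control of cyclin B and Cdk1, 6 rose and 7 fell of 31. *Fzr1*, the activator of the anaphase-promoting complex that keeps cyclin B low in arrested oocytes, fell from 348 to 50.8 CPM without overlap between stages. *Arpp19*, a phosphatase inhibitor of M phase entry, rose from 406 to 1312 CPM, while *Ccnb1*, cyclin B1, was at 436 CPM in NGO and 735 CPM in GO1 and *Mos*, a kinase of meiotic arrest, at 326 CPM in NGO and 369 CPM in GO1, under the size rule. Of the cyclic AMP pathway that holds prophase arrest, 4 rose and 5 fell of 12, with *Rgs2*, a regulator of G-protein signals, going from 293 to 781 CPM and *Gnas*, the stimulatory G protein, from 461 to 201 CPM.

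The subcortical maternal complex, a protein assembly under the oocyte membrane needed by the early embryo, split among its members. Of 8 tested, 1 rose and 3 fell. *Padi6* (NCBIM37 chromosome 4, 140283270 to 140298558, minus strand) was at 4688 to 11606 CPM (median 7279) in NGO cells and 341 to 1769.9 CPM (median 706) in GO1 cells, 9.46-fold lower without overlap. *Tle6* was at 1952 to 6234 CPM (median 4420.5) in NGO and 409.9 to 2031 CPM (median 752) in GO1, and *Khdc3* fell from 4859.9 to 2187 CPM. *Ooep*, in contrast, was at 665 to 5778 CPM (median 2487) in NGO and 882 to 3353 CPM (median 2125) in GO1, within the spread of the cells. *Nlrp5* was at 191 to 5097 CPM (median 2156) in NGO and 544 to 9176 CPM (median 1826) in GO1. Its GO1 mean was 4597 CPM in the shallow cells and 1657 and 1106 CPM in the deeper classes, on both sides of the NGO mean of 2025 CPM.

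In the oocyte Nlrp family, relatives of *Nlrp5*, no member fell, with 7 of 11 tested members higher and a median of 1.97. *Nlrp9c* rose from 7.73 to 211 CPM, *Nlrp9b* from 47.5 to 291 CPM and *Nlrp4a* from 30.00 to 163 CPM. *Nlrp14* and *Nlrp4f* did not pass, with *Nlrp14* at 4549.6 CPM in NGO and 2749 CPM in GO1 and *Nlrp4f* at 573 CPM in NGO and 625 CPM in GO1. The summed level of the family did not rise, at 4896 to 10387 CPM (median 7248) per NGO cell and 3273 to 19718 CPM (median 6356) per GO1 cell. By depth the GO1 means of the sum were 10142, 5637 and 5133 CPM, on both sides of the NGO mean of 7423 CPM.

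Oocyte-specific tandem gene clusters rose broadly. Of 47 tested members 34 rose (72.3%, against 22.1% of all tested genes) and 2 fell, with a median of 1.94, and 26 separated upward. The summed level was 10875 to 29384 CPM (median 17795) per NGO cell and 28143 to 60034 CPM (median 43103) per GO1 cell. By family, all 4 *Oog*, all 3 *Oosp*, all 4 tested *Obox* and both *Omt2* genes rose, as did 5 of 6 *Tcl1* genes and 11 of 14 *Fbxw* genes of the clusters. The 4 *Oas1* genes passed in neither direction and had a median of -0.47. Copies in these clusters can be nearly identical. How reads shared by copies were counted is not given in the sources used here, so values of single members are uncertain.

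*Oog3*, of the PRAME-related family (NCBIM37 chromosome 4, 143747460 to 143752566, minus strand), was at 1.65 to 262 CPM (median 78.4) in NGO cells and 952 to 5067 CPM (median 2412) in GO1 cells, and every GO1 cell was above every NGO cell. *Oosp3*, an oocyte-secreted protein gene, was at 0 to 249 CPM (median 55) in NGO and 366 to 4062 CPM (median 1569.5) in GO1, also without overlap. *Omt2b* (NCBIM37 chromosome 9, 78175396 to 78177427, plus strand) was at 230.5 to 1456 CPM (median 658) in NGO and 1661 to 8651 CPM (median 6014) in GO1. Its 6 deepest GO1 cells had a mean of 2633 CPM, against 6252 CPM in the middle class. *Tcl1*, a cofactor of the kinase AKT, was one of the members that did not pass, at 2299.7 CPM in NGO and 1781 CPM in GO1.

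The *Obox* genes encode oocyte-specific homeobox proteins. Of the wider list of homeobox and cluster factors 5 of 8 tested members rose and 2 fell, with a median of 3.17. Its rises include *Obox* genes already counted with the clusters above, so they do not describe homeobox factors at large. Only 8 of its 22 genes reached the level limit, and with no minimum level the median was -0.35. *Obox2* (NCBIM37 chromosome 7, 15939386 to 15983894, plus strand) was at 0 to 106.9 CPM (median 8.81) in NGO cells and 178 to 2269 CPM (median 667) in GO1 cells, and *Obox5* (NCBIM37 chromosome 7, 16335483 to 16345149, plus strand) at 0 to 176 CPM (median 37.2) in NGO and 199.5 to 2748 CPM (median 672) in GO1. *Obox1* (NCBIM37 chromosome 7, 16097689 to 16142215, plus strand) was at 0 to 43.3 CPM (median 3.94) in NGO and 44.9 to 301 CPM (median 175) in GO1. In all 3 the ranges did not overlap. *Tgif1*, a homeobox repressor outside the cluster, fell from 118.4 to 21.2 CPM. The promoters of these *Obox* genes, which lie together on chromosome 7, are shown to make their kinship visible, in the same frame and with the same core in capitals.
Obox1 (GRCm38.p6, chr7:15547007-15547306, plus strand): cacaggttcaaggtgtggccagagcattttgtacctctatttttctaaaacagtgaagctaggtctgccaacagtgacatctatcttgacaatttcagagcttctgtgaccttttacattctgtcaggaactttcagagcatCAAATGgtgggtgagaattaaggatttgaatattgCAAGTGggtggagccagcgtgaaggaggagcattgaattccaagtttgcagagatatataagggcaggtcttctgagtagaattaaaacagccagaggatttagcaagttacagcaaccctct
Obox2 (GRCm38.p6, chr7:15388601-15388900, plus strand): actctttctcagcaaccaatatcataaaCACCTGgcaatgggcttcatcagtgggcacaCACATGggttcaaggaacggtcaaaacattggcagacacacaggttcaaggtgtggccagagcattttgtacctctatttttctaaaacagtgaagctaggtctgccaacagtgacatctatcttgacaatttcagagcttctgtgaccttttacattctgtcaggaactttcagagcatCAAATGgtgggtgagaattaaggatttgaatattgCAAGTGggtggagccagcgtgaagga
Obox5 (GRCm38.p6, chr7:15750120-15750419, plus strand): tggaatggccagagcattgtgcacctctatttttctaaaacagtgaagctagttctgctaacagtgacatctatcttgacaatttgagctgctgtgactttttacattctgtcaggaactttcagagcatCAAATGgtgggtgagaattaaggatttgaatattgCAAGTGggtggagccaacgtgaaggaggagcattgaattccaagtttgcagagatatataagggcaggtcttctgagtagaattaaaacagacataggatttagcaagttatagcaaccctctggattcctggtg
In global alignments that allowed gaps, 92.33% of the 300 bases matched between *Obox1* and *Obox5*, 67.67% between *Obox1* and *Obox2* and 61.33% between *Obox2* and *Obox5*. The 203 bases shared by *Obox1* and *Obox2* form an unbroken stretch, at the start of the *Obox1* window and the end of the *Obox2* window. The *Obox2* window lies further upstream than the others, so its percentages understate the kinship. In the order shown, the promoters hold 2, 4 and 2 copies of the core. The cores CACCTG and CACATG of *Obox2* lie before the shared stretch.

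**Figure D2:**
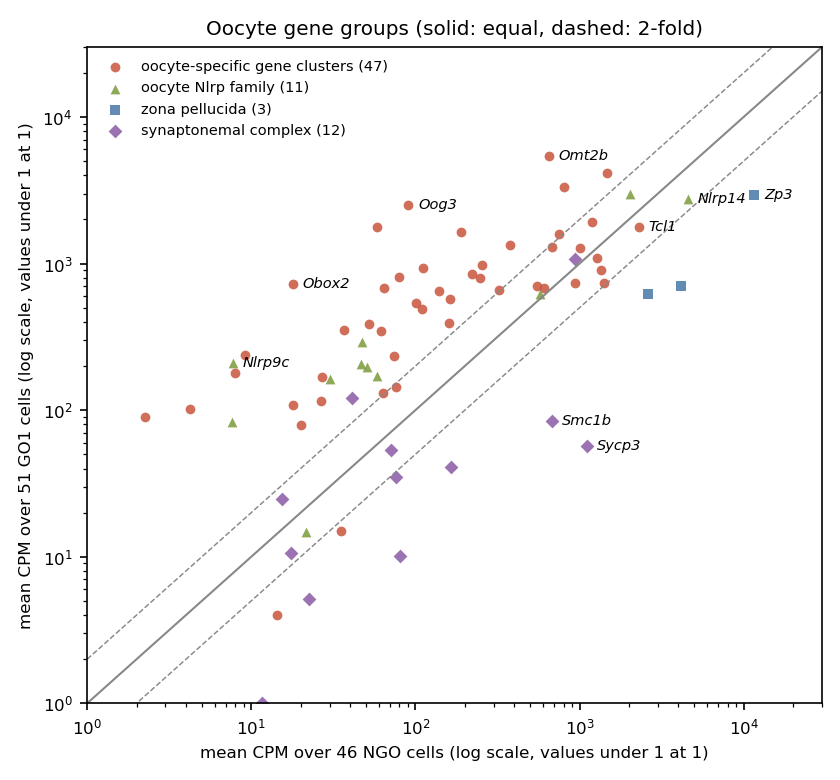
Mean CPM over 46 NGO cells (horizontal axis) against mean CPM over 51 GO1 cells (vertical axis), both log scales with values under 1 drawn at 1, for the tested members of 4 oocyte gene groups. Most of the 47 cluster genes (red) lie above the upper dashed 2-fold line, while the 3 zona genes (blue) and 7 of 12 synaptonemal genes (purple) lie below the lower one.

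The wider F-box family, whose members choose proteins for ubiquitination, had 25 of 59 tested members higher and 15 lower, and the clustered *Fbxw* genes stood for 11 of these rises. *Fbxw14* rose from 799 to 3353 CPM and *Fbxw24* from 1468 to 4155 CPM, while *Fbxw5*, outside the clusters, fell from 93.6 to 5.83 CPM. Among maternal effect genes, whose products act in the embryo, 7 of 31 tested members rose and 10 fell. These were 22.6% and 32.3%, near the 22.1% and 34.6% of all tested genes. *Uhrf1*, which guides maintenance DNA methylation, fell from 1138 to 259 CPM and *Zar1*, an RNA-binding protein of the oocyte, from 3051 to 1184 CPM. *Npm2*, the egg nucleoplasmin, was at 1563 to 3992 CPM (median 2891) in NGO cells and 539 to 1765 CPM (median 954) in GO1 cells. *Plac8* rose from 155.5 to 583 CPM, and *H1foo*, the oocyte linker histone, was at 4419 CPM in NGO and 6395 CPM in GO1, under the size rule.

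Genes of small RNA pathways changed in both directions. The piRNA pathway, which silences transposons in germ cells, had 10 of 20 tested members lower and 5 higher, with a median of -1.08. *Mov10l1*, the helicase of piRNA precursors, was at 41.8 to 458 CPM (median 173) in NGO cells and 0 to 140.1 CPM (median 0) in GO1 cells. *Piwil2*, a piRNA-binding protein, fell from 34.6 to 3.77 CPM, *Fkbp6* from 204 to 14.3 CPM and *Mael* from 302 to 59.1 CPM. Those that rose included *Gtsf1*, a partner of PIWI proteins, from 872 to 2082 CPM, *Piwil1* from 3.34 to 17.6 CPM and *Tdrd12* from 81.4 to 205 CPM. In the machinery of small interfering and micro-RNAs, 3 of 8 rose and 1 fell. *Dicer1*, the nuclease that makes these RNAs, was at 118.5 to 616 CPM (median 363) in NGO and 249 to 2471 CPM (median 1030.2) in GO1, and its cofactor *Tarbp2* fell from 151.8 to 62 CPM.

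Genes for storage and decay of maternal mRNA included members that rose and members that fell. Of the storage and translation control list, 7 of 33 tested members rose and 10 fell. These were 21.2% and 30.3%, near the 22.1% and 34.6% of all tested genes. *Cpeb1*, which controls cytoplasmic polyadenylation, fell from 1012 to 353 CPM and *Pabpc4*, a poly(A)-binding protein, from 627 to 110.1 CPM, whereas *Cpeb4* rose from 6.04 to 34.8 CPM and the cold-shock protein gene *Ybx3* from 55.6 to 316 CPM. In the decay list 12 of 34 tested members rose (35.3%) and 9 fell (26.5%). *Btg4*, the adaptor that brings the deadenylase to maternal mRNA, rose from 565 to 1329.9 CPM, *Cnot7*, a catalytic subunit of that deadenylase, from 112.2 to 444 CPM and *Dcp1a*, a decapping cofactor, from 49.6 to 331 CPM. *Parn*, another poly(A) nuclease, fell from 68.7 to 14.6 CPM.

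Genes of glycolysis and the tricarboxylic acid cycle mostly fell. Of the glycolysis list, 2 of 26 tested members rose and 16 fell, with a median of -1.84. *Gapdh*, *Pkm*, *Aldoa* and *Gpi1*, enzymes of the main chain, fell from 282 to 52, from 857 to 182, from 317 to 62.6 and from 234 to 41 CPM. The platelet isoform gene *Pfkp* rose from 1.06 to 12.3 CPM while *Pfkm*, the muscle isoform of the same enzyme, fell from 16.8 to 2.92 CPM. *Ldhb*, a lactate dehydrogenase subunit that oocytes express strongly, was at 10756 CPM in NGO and 7549.7 CPM in GO1 and did not pass. In the tricarboxylic acid cycle 15 of 23 fell and none rose (median -1.38), among them *Idh3g*, from 164 to 37 CPM, and *Sdhb*, from 275 to 79.6 CPM.

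The respiratory chain was split by member. In complex I 12 of 36 fell and none rose, in complexes II to IV 13 of 29 fell and 3 rose, and in ATP synthase 7 of 19 fell and 2 rose. The shares that fell were 33.3%, 44.8% and 36.8%, so complex I and ATP synthase were near the 34.6% of all tested genes. Rises were fewer than the 22.1% of all tested genes, at 10.3% in complexes II to IV and 10.5% in ATP synthase. *Ndufv1* of the complex I core fell from 301 to 38.7 CPM, and *Uqcrc1* and *Cyc1* of complex III from 343 to 22.1 CPM and from 283 to 32.6 CPM, all 3 without overlap between the cells. The ATP synthase catalytic genes *Atp5b* and *Atp5a1* fell from 593 to 123.5 CPM and from 908 to 190.3 CPM, while the small subunit gene *Atp5k* rose from 585 to 1500.2 CPM and the electron carrier *Cycs*, cytochrome c, from 379 to 1153 CPM. *Cox4i2*, an isoform of a complex IV subunit, fell from 125.6 to 2.29 CPM and the common isoform *Cox4i1* from 1442 to 429 CPM.

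Lipid synthesis and redox defence followed the same direction, with 15 of 25 and 15 of 27 lower, against 1 and 2 higher. *Plin3*, a lipid droplet protein, fell from 168 to 13.8 CPM, and *Fdps*, of the cholesterol pathway, from 163 to 42.5 CPM. *Gpx4*, which reduces lipid peroxides, fell from 504 to 52.3 CPM and *Gpx1* from 216 to 20.4 CPM, while the peroxiredoxin *Prdx1* was at 2394 CPM in NGO and 2159.7 CPM in GO1.

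In 5 lists of protein synthesis, 4.55 to 12.7% of tested members rose, against 22.1% of all genes, and 26 to 68.2% fell, against 34.6%. Of cytoplasmic ribosomal proteins 4 of 80 tested members rose and 29 fell (median -0.74). *Rps3* fell from 335 to 58.1 CPM and *Rpl13* from 1077 to 299 CPM, while *Rpl41* was at 2041 CPM in NGO and 2508 CPM in GO1 and *Rpl39* rose from 674 to 1366 CPM. The summed level was 33554 to 66106 CPM (median 45571) per NGO cell and 9150.5 to 51484 CPM (median 36398) per GO1 cell, with 1 GO1 cell far below the others at the lowest of these values. By depth the GO1 means were 38544, 34832 and 23055 CPM from the shallowest to the deepest class.

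Mitochondrial ribosomal proteins, at 7 higher and 20 lower of 77, had a median of -0.44, close to that of all genes. Their summed level was nevertheless higher, at 8051 to 13300 CPM (median 10546) per NGO cell and 4411 to 18267 CPM (median 14505) per GO1 cell. The mean of this sum went from 10565 CPM (NGO) to 13942 CPM (GO1). Most of that gain came from *Mrps33* alone, which rose from 607 to 3707 CPM. Of initiation and elongation factors 7 of 64 tested members rose and 22 fell. *Eif4ebp1*, the repressor of cap-dependent translation that mTOR inactivates, was at 79.7 to 479.9 CPM (median 278) in NGO cells and 0 to 44.9 CPM (median 0) in GO1 cells, with no overlap. *Eif5a* fell from 1470 to 246 CPM and the helicase *Eif4a1* from 1127 to 256 CPM, whereas *Eif2s2* rose from 736 to 3666 CPM and *Eif5b*, which joins the ribosomal subunits, from 353 to 2686 CPM. The rise of *Eif5b* was largest in the shallow GO1 cells, at 3497 CPM against 2236 and 1022 CPM in the deeper classes. Of aminoacyl-tRNA synthetases and their partners 15 of 22 fell and 1 rose, the riser being *Eef1e1*, a component of the synthetase complex, from 105.1 to 223.1 CPM. In ribosome biogenesis 7 of 55 tested members rose and 21 fell, with the nucleolar methyltransferase *Fbl* falling from 131.3 to 15.7 CPM and nucleophosmin *Npm1* rising from 568 to 1419 CPM.

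Genes of protein folding had 26 of 55 tested members lower (47.3%), 3 higher, a median of -0.95 and 17 that separated downward. The chaperonin subunit genes *Cct6a* and *Cct7* fell from 233 to 7.67 CPM and from 293 to 39.5 CPM, the disulfide isomerase *Pdia3* from 613 to 82.7 CPM and *Hsp90ab1*, a constitutive HSP90, from 1919 to 427 CPM. *Hsp90aa1*, the other cytosolic HSP90, was at 5178 CPM in NGO and 4052 CPM in GO1 and did not pass. Against the rest, the prefoldin subunit *Pfdn4* was at 260.1 to 824 CPM (median 475) in NGO and 928 to 6643 CPM (median 3154) in GO1 without overlap. The summed level was 20879 to 33339.6 CPM (median 27922) per NGO cell and 14255 to 21847 CPM (median 16758) per GO1 cell.

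Protein turnover divided by route. In autophagy and the lysosome 3 of 31 tested members rose and 20 fell (median -1.42). The lysosomal protease *Ctsd*, the membrane protein *Lamp1* and the autophagosome gene *Gabarap* fell from 419 to 21.4, from 1228 to 160.1 and from 162 to 8.11 CPM, each without overlap, while *Ctsl*, another lysosomal protease, was at 234 CPM in NGO and 464 CPM in GO1. Its summed level was 3662 to 5852 CPM (median 4742) per NGO cell and 1258 to 3815 CPM (median 2269) per GO1 cell. For the proteasome 3 of 45 tested members rose and 11 fell, with a median of -0.35 next to that of all genes. *Psmd13* and *Psmd2* of the regulatory particle fell from 86.4 to 2.91 CPM and from 338 to 73 CPM, and *Psma7* and *Psmb1* of the core rose from 1138 to 2649.5 CPM and from 289 to 679 CPM. Of ubiquitin-conjugating enzymes 5 of 29 tested members rose and 9 fell, with *Ube2c*, the partner of the anaphase-promoting complex, falling from 1022 to 256 CPM. Of Usp deubiquitinases 11 of 38 tested members rose and 7 fell, and X-linked *Usp9x* rose from 89.9 to 368 CPM.

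In the secretory route 5 of 52 tested members rose and 20 fell. Genes of the oligosaccharyl transferase, *Ddost* and *Rpn1*, fell from 212 to 31.4 CPM and from 175 to 26.8 CPM, and *Sec62* of the translocon rose from 406 to 2074 CPM. Of Rab GTPases, switches of vesicle traffic, 2 of 35 tested members rose and 14 fell. *Rab11b*, of recycling endosomes, fell from 227 to 20.9 CPM and *Rab3d* from 412 to 65.1 CPM, whereas *Rab21* was at 0 to 21.6 CPM (median 10.5) in NGO and 21.7 to 524 CPM (median 91.1) in GO1.

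**Figure D3:**
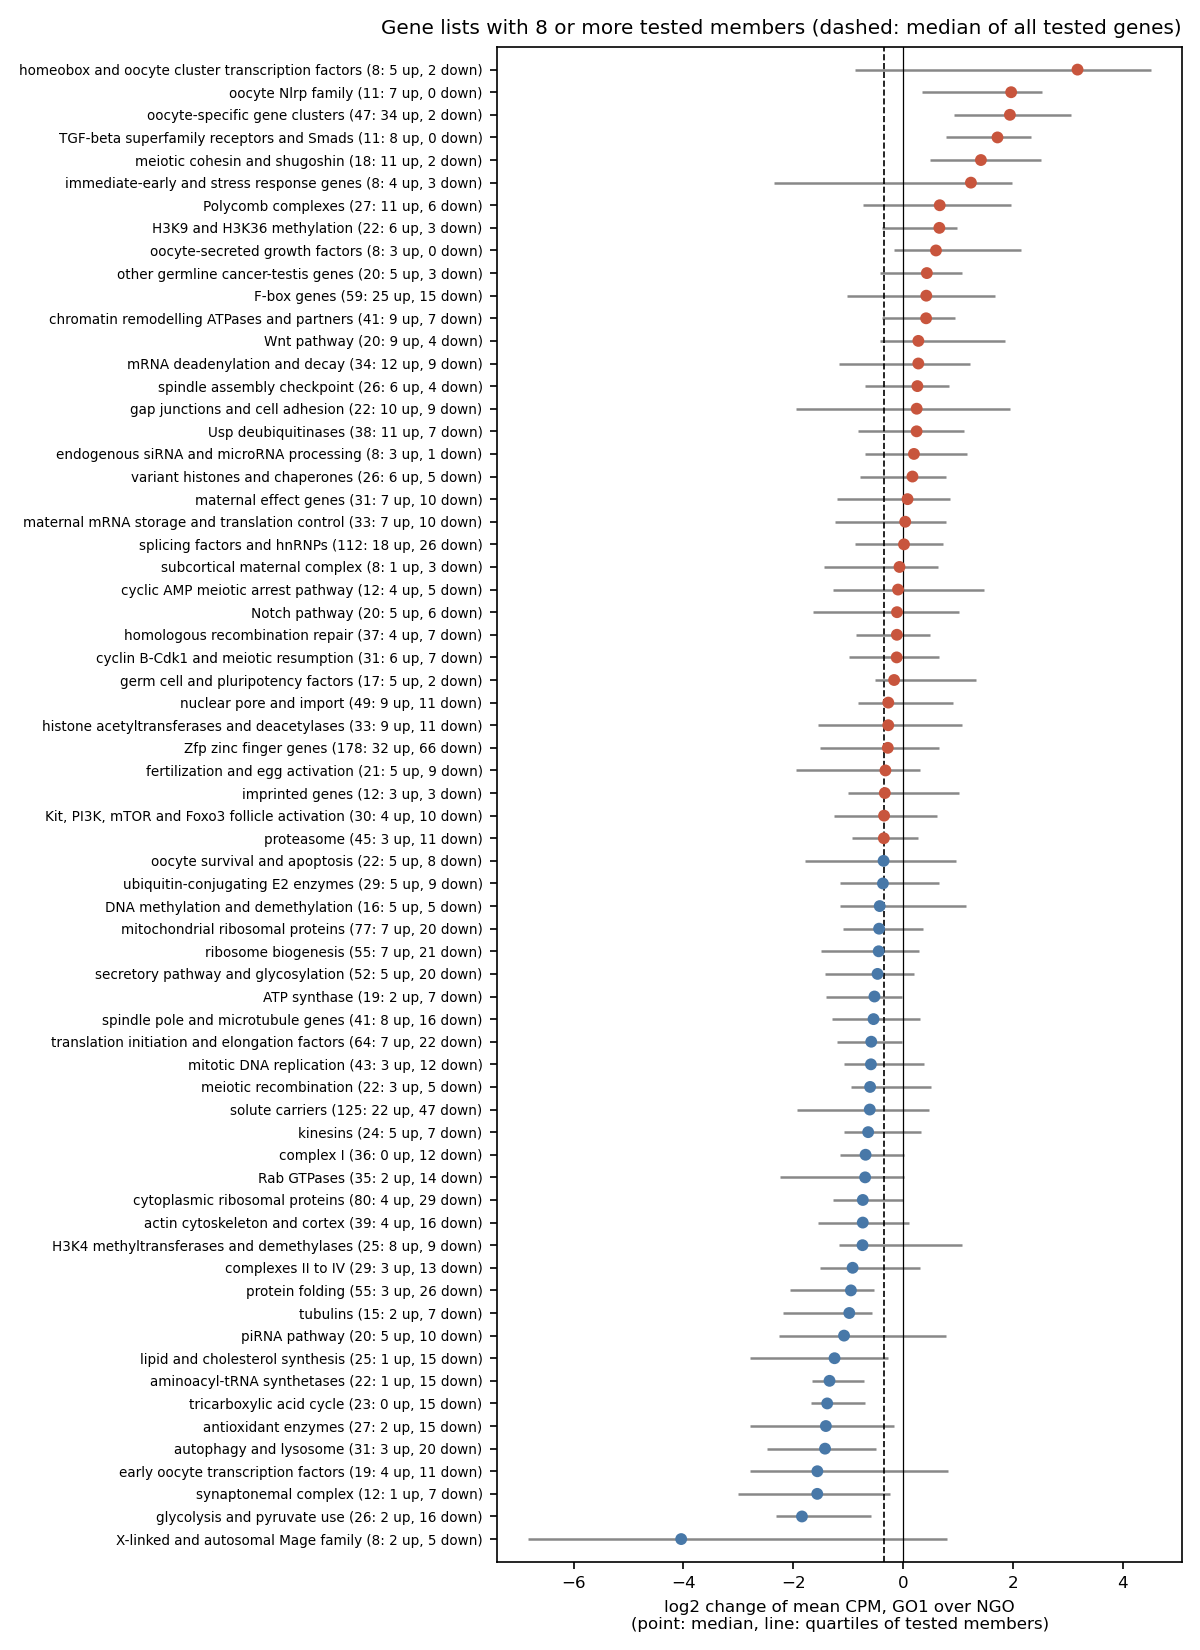
Median log2 change of mean CPM (GO1 over NGO, horizontal axis) of each gene list with 8 or more tested members, with lines from the lower to the upper quartile of the members and, in brackets, how many were tested, rose and fell. The dashed line is the median of all tested genes at -0.36; red points lie above it, led by homeobox, Nlrp and cluster genes, and blue points below it, ending with glycolysis and the Mage family.

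Chromatin regulators changed in both directions. Polycomb genes, whose complexes modify histones to repress transcription, had 11 of 27 higher and 6 lower (median 0.67). *Eed* and *Suz12* of the second repressive complex rose from 79.6 to 302 CPM and from 35.8 to 182 CPM, as did *Bmi1* and *Pcgf1* of the first, from 25.4 to 180.3 CPM and from 163 to 750.2 CPM. The methyltransferase *Ezh2* was at 377 CPM in NGO and 601 CPM in GO1 and did not pass, and *Rbbp4*, a histone-binding subunit, fell from 169.9 to 33 CPM. Its paralog *Rbbp7* stood at 1065 CPM in NGO and 1688 CPM in GO1.

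Of genes for H3K9 and H3K36 methylation 6 of 22 tested members rose and 3 fell, with *Setdb2* rising from 9.13 to 66.5 CPM and *Ehmt2*, an H3K9 methyltransferase, falling from 19.5 to 3.20 CPM. Of H3K4 enzymes and partners 8 of 25 tested members rose and 9 fell. *Kdm1b*, a demethylase needed for maternal imprints, fell from 345 to 120.03 CPM, *Kmt2c* rose from 58.8 to 202 CPM, and *Dpy30*, a shared subunit of H3K4 methyltransferases, from 323 to 868 CPM. Acetyltransferases and deacetylases (9 higher, 11 lower of 33) included falls of *Hdac1*, from 86 to 7.26 CPM, and *Hdac6*, from 79.5 to 12 CPM, and a rise of *Sirt1*, from 4.23 to 51.5 CPM. Of remodelling ATPases and partners 9 of 41 tested members rose and 7 fell.

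DNA methylation genes were balanced, with 5 higher and 5 lower of 16. *Dnmt3a*, the methyltransferase that acts in growing oocytes, was at 87.3 to 645 CPM (median 245) in NGO and 37.8 to 1007 CPM (median 197) in GO1, with overlapping cells and no change past the rule. *Dnmt3l*, its cofactor, was at 0 to 88.6 CPM (median 10.3) in NGO and 0 to 249 CPM (median 42.8) in GO1. Its GO1 means by depth were 30.2, 49.4 and 192 CPM, so the rise was largest in the 6 deepest cells. *Dnmt1*, the maintenance enzyme, fell from 1997 to 916 CPM. Of variant histones and chaperones 6 of 26 tested members rose and 5 fell, with *H3f3b*, which encodes histone H3.3, rising from 1641 to 4792 CPM and the chaperone *Asf1a* from 326 to 1585 CPM. Most replication-type histone mRNAs carry no poly(A) tail, and of the 4 genes that reached the level limit 3 rose.

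For the Kit, PI3K and mTOR route of follicle activation 4 of 30 tested members rose and 10 fell, and the median change of -0.35 was close to that of all genes. The summed level was lower, at 2536 to 3441 CPM (median 3016) per NGO cell and 789.9 to 3137 CPM (median 1799.7) per GO1 cell. *Kit*, the receptor that receives the activating signal from granulosa cells, was at 30.3 to 136.3 CPM (median 89.1) in NGO cells and 10.1 to 566 CPM (median 122.1) in GO1 cells, under the size rule. *Foxo3*, the brake on activation, was below the level limit at 4.57 CPM in NGO and 1.66 CPM in GO1. *Akt2* fell from 60.5 to 7.89 CPM and *Lamtor1*, which anchors mTOR to the lysosome, from 525 to 88.8 CPM. Wnt genes had 9 of 20 higher and 4 lower, with beta-catenin *Ctnnb1* rising from 40.8 to 142.4 CPM and the target gene *Axin2* from 28.6 to 112.7 CPM. In the Notch list 5 of 20 tested members rose and 6 fell, and the ligand gene *Jag1* rose from 99 to 401 CPM.

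Adhesion and junction genes moved strongly in both directions, with 10 higher and 9 lower of 22. *Gja4*, the connexin of oocyte gap junctions, was at 157.3 to 761 CPM (median 443) in NGO and 44.9 to 845 CPM (median 328) in GO1, under the size rule. *Epcam*, an epithelial adhesion protein, fell from 34.3 to 1.97 CPM, and *Cdh2*, *Itga6* and *Nectin3*, a cadherin, an integrin and a nectin, rose from 3.81 to 30.2, from 10.4 to 82.8 and from 23.7 to 162 CPM. Of fertilization genes 5 of 21 tested members rose and 9 fell. The tetraspanin *Cd9*, which gamete fusion needs, fell from 867 to 210.4 CPM and ovastacin, *Astl*, from 881 to 273 CPM, while the zinc transporter *Slc39a10* rose from 56.8 to 441 CPM.

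Of survival and apoptosis genes 5 of 22 tested members rose and 8 fell, with *Bcl2l10*, an oocyte member of the BCL2 family, rising from 1058 to 2599 CPM, *Mdm4*, an inhibitor of p53, from 494 to 3271 CPM, and the death effector *Bid* falling from 28.5 to 0.275 CPM. Those that rose and fell were 22.7% and 36.4% of the tested members, near the 22.1% and 34.6% of all tested genes. The summed level of this list was higher in GO1, at 3214 to 5189 CPM (median 4162) per NGO cell and 5162 to 13005 CPM (median 10139.7) per GO1 cell. Its mean was 4205 CPM in NGO and 9907 CPM in GO1, and *Mdm4* and *Bcl2l10* together made up most of this rise. Homologous recombination repair (4 higher, 7 lower of 37) and splicing factors (18 higher and 26 lower, 16.1% and 23.2% of those tested) mostly did not pass. DNA replication had 3 higher and 12 lower of 43, with 27.9% lower against 34.6% of all genes. *Pold1*, the catalytic subunit of polymerase delta, fell from 39 to 1.28 CPM. Immediate-early genes, which respond quickly to stimuli, gave no clear direction, with 4 higher and 3 lower of 8, and their median of 1.23 turned to -1.31 when medians over cells were compared.

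In 4 lists of the cytoskeleton, 10.3 to 20.8% of tested members rose and 29.2 to 46.7% fell, a range that includes the background of 34.6%. Of tubulins 2 of 15 tested members rose and 7 fell, with *Tuba1b* falling from 487 to 49.3 CPM and *Tubb6* from 571 to 127.3 CPM. Of actin and cortex genes 4 of 39 tested members rose and 16 fell. The actins *Actb* and *Actg1* fell from 948 to 169 CPM and from 1112 to 121.7 CPM and profilin *Pfn1* from 805 to 137.4 CPM, whereas *Fmn2*, the formin that moves the meiotic spindle, rose from 19.09 to 176 CPM. Of spindle pole and microtubule genes 8 of 41 tested members rose and 16 fell. *Ran*, the GTPase of nuclear transport and spindle assembly, fell from 1370.3 to 243 CPM and *Rangap1*, its activator, from 106.5 to 2.85 CPM, in the nuclear pore list, which as a whole (9 higher, 11 lower of 49) lay near the median of all genes. Of kinesins 5 of 24 tested members rose and 7 fell.

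Summed levels, which weigh members by their level, could part from the counts of members. Maternal effect genes summed to 26102 to 43697 CPM (median 36683) per NGO cell and 20109.8 to 31184 CPM (median 24517) per GO1 cell, and DNA methylation genes to 9051 to 22582 CPM (median 12902) per NGO cell and 6733 to 11605 CPM (median 8099) per GO1 cell, both with a lower median in GO1 although their counts were mixed. *Dnmt1*, *Dnmt3a* and *Dnmt3l* held only a small part of the DNA methylation sum, so its fall came mostly from other members. *Dnmt1* fell too, whereas *Dnmt3a* and *Dnmt3l* did not. Fertilization genes summed to 14518 to 23599 CPM (median 20377) per NGO cell and 5603 to 14107 CPM (median 8278) per GO1 cell without overlap. Genes of mRNA decay summed to 1942 to 4101 CPM (median 2664) per NGO cell and 3277 to 9100.1 CPM (median 4524) per GO1 cell. The nuclear pore list summed to 5130.5 to 8021 CPM (median 6431) per NGO cell and 2950.5 to 6546 CPM (median 4677) per GO1 cell.

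Other families were counted whole. Of Mage genes 2 of 8 tested members rose and 5 fell. *Maged1* was at 211 to 945 CPM (median 483) in NGO cells and 0 to 44.9 CPM (median 0) in GO1 cells without overlap, while *Magea10* rose from 0.108 to 32.8 CPM. Of other germline genes 5 of 20 tested members rose and 3 fell, and *Tex26* was at 0 to 7.63 CPM (median 0) in NGO and 20.2 to 420.1 CPM (median 142.1) in GO1. Of solute carriers 22 rose and 47 fell (17.6% and 37.6% of those tested), with *Slc25a5*, the mitochondrial exchanger of ADP and ATP, falling from 547 to 66.7 CPM. Zfp zinc finger genes (32 higher, 66 lower of 178) had a median of -0.28, and of 12 imprinted genes 3 rose and 3 fell. Olfactory receptors were tested for 3 members only. Among families formed by a shared symbol stem, with 8 or more tested members each, some outside the lists had low medians, as *Fkbp* immunophilins (8 of 10 lower), *Nudt* hydrolases (10 of 16), *Hspa* chaperones (6 of 8), *Aldh* dehydrogenases (6 of 9), *Pex* peroxisome genes (8 of 15) and *Coq* genes of ubiquinone synthesis (8 of 10). The *Zcchc* zinc finger genes had 7 of 9 higher. These families were picked after their values were seen.

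The largest rises among separated genes reaching 100 CPM, after *Tex26*, were *A630095E13Rik*, from 0.647 to 215 CPM, *Fam162b*, from 1.11 to 157.4 CPM, *Tac2*, a neurokinin precursor, from 2.86 to 133.2 CPM and *Gm813*, from 105.3 to 4761 CPM. *Obox2*, *Slain1*, *Gm16497*, *Oosp3* and *Oog3* complete the 10. In the other direction *Sohlh1* and *Maged1* were followed by *Myot*, a sarcomere protein gene, from 396 to 4.72 CPM, *Gipc1*, from 188 to 3.10 CPM, *Cox4i2*, *Bbx*, *Krt79*, *Eif4ebp1*, *Rangap1* and *Cct6a*.

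Genes that rose and fell differed in base composition and length. The median GC content of the transcript was 46.5% for genes higher in GO1, 52.7% for genes lower and 49.3% for all 7592 tested genes with a transcript in GENCODE vM1. When genes were divided into 10 equal bins by GC content, 36.8% of the lowest bin were higher and 14.6% lower, and in the highest bin 8.95% were higher and 62.5% lower. Across genes, Spearman's rho between GC content and log2 change was -0.358, which describes genes that share libraries and is not a test. In the bin of the longest transcripts, 1 of 10 by length, 37.2% were higher and 16.6% lower. Promoters also differed, as 56.6% of 175 genes that separated upward had a CpG-rich promoter (observed over expected CpG of at least 0.6) against 81.2% of 260 that separated downward and 76.2% of tested genes. RefSeq promoters were matched for 6938 of 8539 tested genes.

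**Figure D4:**
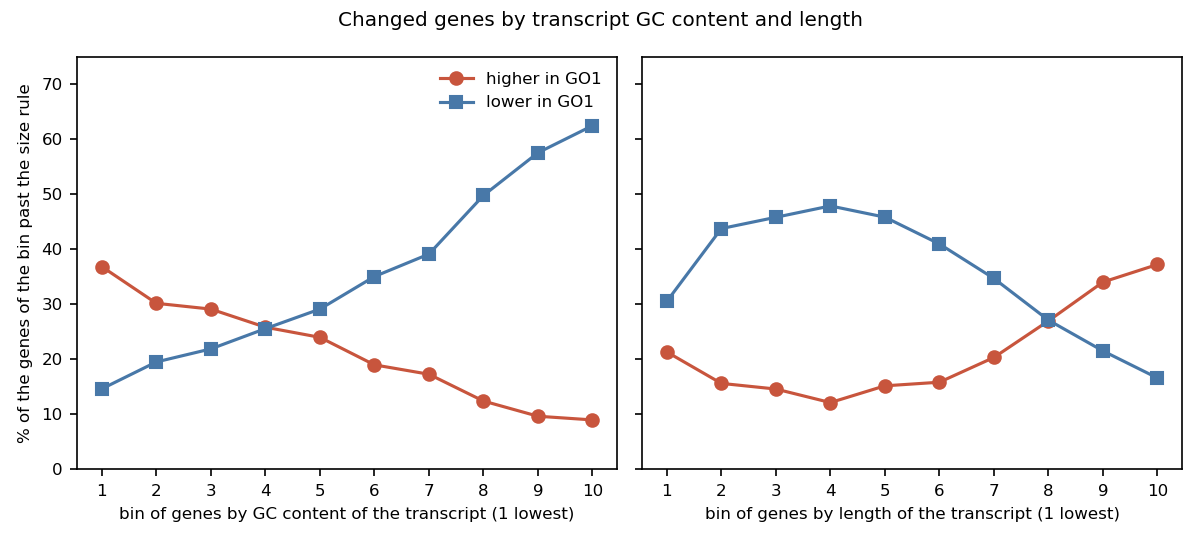
Percentage of tested genes that rose (red circles) or fell (blue squares) past the size rule, on the vertical axis, in 10 equal bins of genes by transcript GC content (left) and transcript length (right), from lowest to highest along the horizontal axis. The lines cross, with rises from 36.8% down to 8.95% and falls from 14.6% up to 62.5% across GC content.

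The same quantity was measured per cell by weighting each transcript's GC content by its UMIs. It was 49.3 to 50.2% in NGO cells (median 49.6%) and 46.4 to 48.9% in GO1 cells (median 47.5%), with no overlap. Among GO1 cells it moved with depth, with medians of 47.2%, 47.6% and 48.7% from the shallowest to the deepest class and a Spearman's rho with UMIs of 0.652 over 51 cells, against 0.04 over 46 NGO cells. Cells of 1 stage share their preparation, so these are descriptions. Across the 66 lists with 8 or more tested members, the rho between the list's GC content and its median change was -0.292. The part of base composition, length and capture in the changes above was not tested.

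Within the class of 100000 to 1000000 UMIs, held by 36 NGO and 21 GO1 cells and chosen after the data were seen, 1851 genes were higher and 3058 lower, near the numbers from all cells. Single genes and list sums moved more with depth. In 9 of 69 lists the mean sum of the 6 deepest GO1 cells differed from that of the middle class at least 1.5-fold, 5 upward and 4 downward. Besides the zona, cohesin and ribosomal protein lists, these were 6 others. From the shallowest to the deepest class, small interfering and micro-RNA genes had 1799.5, 1732 and 956 CPM, so the deepest cells were close to the NGO mean of 812 CPM. ATP synthase had 9615, 8629 and 5599.6 CPM, around an NGO mean of 9094 CPM. Tubulins had 1197, 1263 and 2320.4 CPM and the tricarboxylic acid cycle 1492, 1669.5 and 2618 CPM, all below the NGO means of 3763 and 3222 CPM. Kinesins had 1727, 1698 and 2765 CPM and secreted growth factors 5478, 4339 and 7284 CPM, on both sides of NGO means of 2262 and 5286 CPM. Glycolysis, at 7563, 9865 and 11888 CPM, and fertilization genes, at 7532, 8744 and 12522 CPM, also came nearer to their NGO means of 14678 and 20154 CPM in deeper cells. The zona list was at 3565, 4318 and 7009 CPM in the 3 depth classes of GO1, all below the lowest NGO cell, and the cluster list at 38905, 49533 and 51174 CPM.

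**Figure D5:**
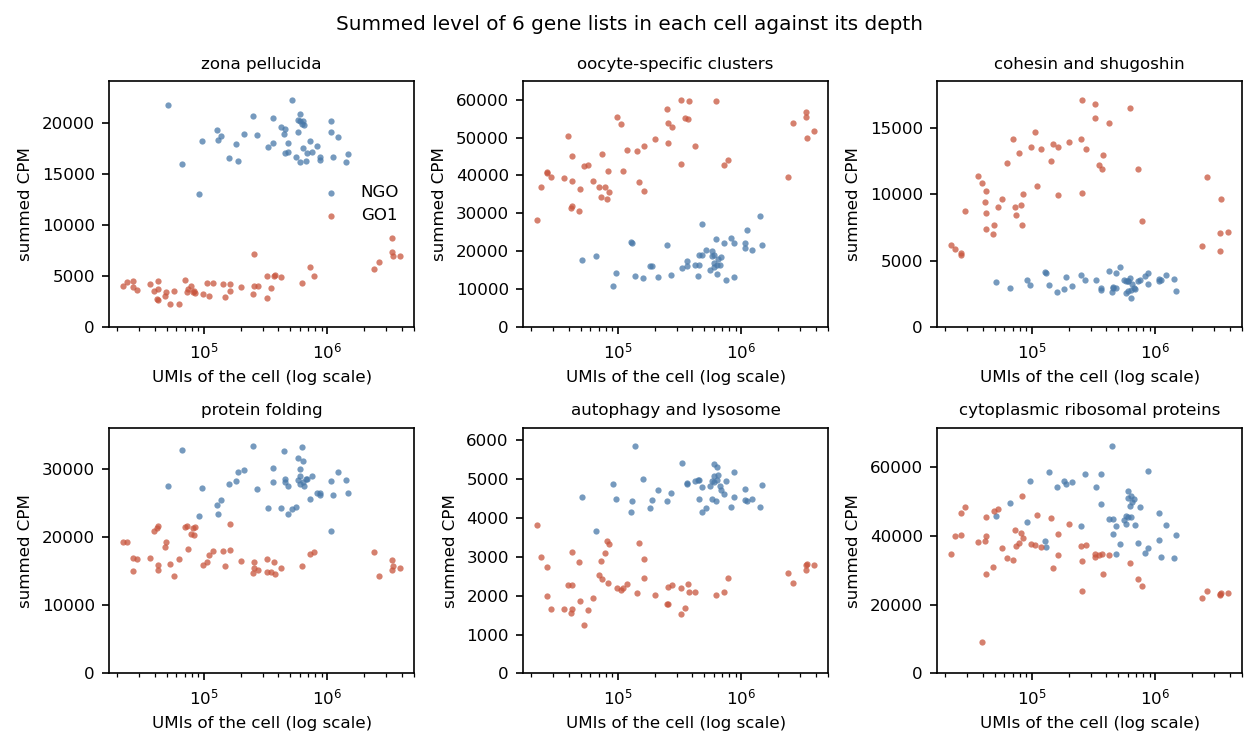
Summed CPM of 6 gene lists (vertical axis) in each cell against the UMIs of the cell (horizontal axis, log scale), NGO in blue and GO1 in red. Every zona sum in GO1 is below every sum in NGO, autophagy sums are mostly lower and cluster sums mostly higher in GO1, while ribosomal protein sums overlap and are at the low end of GO1 in its 6 deepest cells.

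Levels at the later stages place the change at growth onset among later ones. These were GO2 and GO3, 2 further growing classes, and fully grown oocytes (FGO). *Zp3* had stage means of 11549, 2952, 4604, 5565 and 8227 CPM from NGO to FGO, so its share was lowest in GO1 and FGO stayed below NGO. *Sohlh1* stayed low, at 392, 0.693, 0.558, 2.20 and 28.7 CPM, although FGO cells ranged from 0 to 243 CPM (median 12.5). *Sycp3* also stayed low after NGO, at 1115, 57, 34.8, 34.7 and 60.9 CPM. *Padi6* had 7547, 798, 965, 1131 and 1895 CPM.

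Rises had other courses. *Bmp15* was highest in GO1, with means of 110.9, 1069, 459, 576 and 416 CPM. *Omt2b*, at 649, 5444, 4800, 3604 and 2878 CPM, was also highest there, whereas *Oog3*, at 90.1, 2493, 3435, 3323 and 2732 CPM, was highest in GO2. The summed cluster list had medians of 17795, 43103, 58097, 51058 and 46886 CPM per cell over the 5 stages, and the summed cohesin and shugoshin list 3470, 10264, 12574, 12179 and 9855 CPM. The course of the latter was largely that of securin, *Pttg1*, with medians of 1411, 6539, 9953, 9167 and 7279 CPM. The ribosomal list, at 45571, 36398, 23838, 24223 and 29458 CPM, was lowest in GO2.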

How the data were processed

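Polyadenylated RNA of single oocytes was sequenced with cell barcodes and UMIs. Per the labels and methods, the authors aligned reads with Tophat to mm9, removed duplicate UMIs and deposited raw UMI counts per gene and cell (23201 genes, 223 cells). Cells of the NGO and GO1 columns were scaled to CPM and averaged by stage. A gene needed a mean of 10 CPM in the higher stage and a 2-fold difference. For separation, cells were thinned to 20000 UMIs with a fixed seed. Each stage is 1 pooled sample, so no p-value was computed, and intervals cover counting error only. Doublets were not called, as the cells were single oocytes picked by hand. Analyses used Python 3.11.15 with numpy 2.4.6, pandas 2.3.3 and scipy 1.17.1. Scaling factors were computed with DESeq2 1.42.0 and edgeR 4.0.16 (TMM) in R 4.3.3. On simulated counts, 200 of 200 genes changed 4-fold were recovered among 7681, and 1 unchanged gene was called. The simulated cells of a stage shared 1 profile and differed only by depth and counting error. This checks the calculation and gives no error rate for the real calls, whose cells also differed in composition. Gene positions are from GENCODE vM1 on NCBIM37, the assembly of mm9. Promoters are from RefSeq on GRCm38.p6.

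Genes were named by a fixed rule. It took the 10 largest separated rises and falls at 100 CPM or more, up to 5 called members of each list with the largest change, up to 5 with the highest level, and a set of known oocyte genes. The members and the 73 gene lists were chosen with earlier results of these data known. Alternatives covered scaling, depth, thresholds and the use of medians over cells. Spike-in counts and chromatin data were not analysed here.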

Additional observations from a re-analysis of the deposited data

How the results depend on the processing

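Counts of genes past the size rule depended on the thresholds. With no minimum level, 11046 genes passed (4511 higher in GO1, 6535 lower), with at least 50 CPM 2377 (964 and 1413) and with at least 4-fold 2184 (862 and 1322). At 1.5-fold it was 6305. Under the settings of scaling, depth and averaging the total ranged from 3951, for UMIs summed over cells, to 5098, without the 10 deepest cells of each stage. The share of calls that were higher in GO1 was 38.9%, and became 53.9% with DESeq2 size factors, 52.97% with TMM factors and 28.4% with medians over cells. The number of separated genes (527, of which 214 upward and 313 downward) became 1154 (419 and 735) in the 46 NGO and 38 GO1 cells thinned to 50000 UMIs, 1270 (466 and 804) at 80% of pairs and 254 (110 of them upward) at 95%. For the 50000 UMI setting the cause was not tested. The median change reversed for immediate-early genes in cells with at least 100000 UMIs (-0.38), with medians over cells (-1.31), with no minimum level (-0.25) and within 100000 to 1000000 UMIs in both stages (-0.54), the last chosen after seeing the data. With no minimum level it also reversed for homeobox and cluster factors (-0.35) and olfactory receptors (-0.0049), since genes with few UMIs then enter. No named gene reversed. Of the 211 named genes, 182 kept their side of the size rule in every setting of scaling and depth, and 14 fell below it with summed UMIs, where the deepest GO1 cells weigh most. Of 72 lists, 44 kept their median change on the same side of 2-fold in every setting and 28 did not. No paired analysis was possible because the cell columns carry no library or replicate number and each stage is 1 pooled sample, which also leaves no replicate to omit. Shallow GO1 cells limit what can be said of genes near the level limit in single cells.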
